A study of Saccharomyces cerevisiae with 24 samples.

Results

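The genes described here are the 38 budding yeast genes for cytosolic translation factors: initiation factors, elongation factors, release factors and the poly(A)-binding protein PAB1. They were chosen by name, not by a threshold on their measured values, but with earlier results of these data known, and are 38 of the 7126 genes in the table. RNA sequencing measured them in Saccharomyces cerevisiae of strain CEN.PK in 4 genotypes. The rph1Δ cells lack Rph1, a demethylase of lysine 36 of histone H3 (H3K36). The set2Δ cells lack Set2, the H3K36 methyltransferase. The labels of the H3K36A cells name an exchange in HHT1 as well as HHT2, which both encode histone H3, so that the lysine Set2 acts on is replaced by alanine. WT cells are the unedited strain. Each genotype was sampled in log phase in the rich medium YPL (0 h), then at 1 h and 3 h after a single wash and a move to the minimal medium SL. Each of the 12 groups holds 2 libraries, 24 in all, and the labels do not say whether the replicates of a group were separate cultures, so that every p-value below measures only the spread between these libraries.

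As background, translation starts when eIF2, loaded with GTP and the initiator tRNA, joins the small ribosomal subunit together with eIF1, eIF1A, eIF5 and the eIF3 complex. The eIF4F complex (the cap-binding protein eIF4E, the scaffold eIF4G and the helicase eIF4A) and PAB1 bring the mRNA, and eIF5B joins the large subunit. In elongation, eEF1A delivers aminoacyl-tRNA, the eEF1B complex recharges eEF1A with GTP, eEF2 moves the ribosome along, and fungi need a further ATPase, eEF3, in every cycle. The release factors eRF1 and eRF3 end translation at a stop codon. Growing yeast makes these factors in large amounts together with ribosomal proteins, and several are encoded by a pair of genes.

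For 3 such pairs the members moved far apart in these data: HEF3 and YEF3, the 2 genes for eEF3; TEF2 and TEF1, the 2 genes for eEF1A; and CAM1 and TEF4, the 2 genes for the gamma subunit of eEF1B. The coding sequences are 74.5% identical in the first pair, 99.9% in the second and 69.9% in the third. The upstream sequences of these 6 genes are shown, and whether they had a part in the different levels was not tested. Each is the stretch from 500 to 201 bases before the start codon, 300 bases read 5′ to 3′ on the gene's strand from the reference genome R64, whose coordinates are those of sacCer3, the build of the deposited table. None of the 6 stretches overlaps a neighbouring coding sequence. Capitals mark matches, on either strand, to 4 short motifs that are described after them.
HEF3 (chrXIV:605819-606118, plus strand): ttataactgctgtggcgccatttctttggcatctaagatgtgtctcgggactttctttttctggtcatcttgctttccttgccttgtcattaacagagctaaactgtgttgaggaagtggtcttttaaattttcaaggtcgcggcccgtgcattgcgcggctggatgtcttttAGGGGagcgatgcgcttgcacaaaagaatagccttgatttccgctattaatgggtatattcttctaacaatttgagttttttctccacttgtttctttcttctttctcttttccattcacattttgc
YEF3 (chrXII:636280-636579, plus strand): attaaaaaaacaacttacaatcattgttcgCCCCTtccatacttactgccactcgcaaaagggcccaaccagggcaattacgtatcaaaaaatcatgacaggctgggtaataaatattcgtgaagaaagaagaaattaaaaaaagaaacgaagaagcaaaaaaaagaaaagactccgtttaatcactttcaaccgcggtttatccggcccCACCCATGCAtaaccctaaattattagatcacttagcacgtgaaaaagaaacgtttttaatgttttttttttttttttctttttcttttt
TEF2 (chrII:477171-477470, plus strand): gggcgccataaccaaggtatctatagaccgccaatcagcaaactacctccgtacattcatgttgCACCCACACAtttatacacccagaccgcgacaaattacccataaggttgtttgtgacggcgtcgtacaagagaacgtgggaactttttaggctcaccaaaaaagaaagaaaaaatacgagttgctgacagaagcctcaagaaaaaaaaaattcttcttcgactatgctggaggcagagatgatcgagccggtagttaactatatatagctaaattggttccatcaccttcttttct
TEF1 (chrXVI:700094-700393, plus strand): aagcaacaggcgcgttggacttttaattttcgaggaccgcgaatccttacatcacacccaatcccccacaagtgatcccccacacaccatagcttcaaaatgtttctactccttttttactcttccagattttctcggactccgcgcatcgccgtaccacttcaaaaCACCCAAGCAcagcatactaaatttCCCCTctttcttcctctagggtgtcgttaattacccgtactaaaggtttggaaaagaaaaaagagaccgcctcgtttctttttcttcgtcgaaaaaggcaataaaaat
CAM1 (chrXVI:463901-464200, plus strand): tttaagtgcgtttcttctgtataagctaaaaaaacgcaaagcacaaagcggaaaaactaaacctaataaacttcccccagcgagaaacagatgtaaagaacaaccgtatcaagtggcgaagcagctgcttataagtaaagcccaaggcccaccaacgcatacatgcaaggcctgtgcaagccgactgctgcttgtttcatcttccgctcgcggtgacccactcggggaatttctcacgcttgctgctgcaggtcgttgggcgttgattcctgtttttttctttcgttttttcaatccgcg
TEF4 (chrXI:282391-282690, plus strand): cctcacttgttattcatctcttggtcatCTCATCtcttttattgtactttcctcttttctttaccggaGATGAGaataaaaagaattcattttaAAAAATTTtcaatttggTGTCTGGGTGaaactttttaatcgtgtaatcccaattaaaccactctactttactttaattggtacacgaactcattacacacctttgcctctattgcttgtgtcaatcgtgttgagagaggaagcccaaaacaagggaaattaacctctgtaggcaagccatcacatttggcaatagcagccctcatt

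The motifs searched on both strands were CACCCA followed by any 2 bases and CA, a loose form of the site of Rap1, the factor that binds upstream of many ribosomal protein genes in yeast; GATGAG, known as the PAC element, and AAAAATTT, known as RRPE, both described upstream of ribosome biogenesis genes; and AGGGG, the stress response element bound by Msn2 and Msn4. The loose Rap1 form was chosen after the sequences had been read, because a stricter form, ACACCC followed by any 2 bases and ACA, matched none of the 38 genes and 0.583% of all 6006 windows of this kind. The loose form matched 4 of the 38 genes, namely TEF1, TEF2, TEF4 and YEF3, and 1.62% of all windows. GATGAG matched 7 of the 38 genes, against 16.2% of all windows, AAAAATTT matched 8, against 9.62%, and AGGGG matched 7, among them TEF1, YEF3 and HEF3, against 22.4%. A match is a string of letters and not a measured binding site.

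The libraries held 6623458 to 7677684 counts each. Levels are given in FPKM, which scales each count to the length of the gene's exons and to the depth of its library and allows levels of different genes to be compared. Changes are log2 fold changes ± SE from a fit of all genes, on counts scaled by the TMM method, and a gene is called higher or lower at a Benjamini-Hochberg adjusted p under 0.05 over the 6503 genes tested (edgeR's quasi-likelihood test). All 38 genes passed the filter on low values. The 2 scales differ by the TMM factors, so that a ratio of FPKM can differ from the tested fold. Where limma is named below, it was run on log2 FPKM. It therefore shares the scaling of the setting called library totals, and the 2 are not separate checks of scaling. The deleted genes matched their labels: RPH1 held 0 to 4 counts per rph1Δ library, against 325 to 732 per WT library, and SET2 had 0 in set2Δ, against 151 to 415 in WT. The H3K36A libraries stood apart in a way their label does not name. The H3 genes HHT1 and HHT2 held 0 to 2 counts per H3K36A library, against 1579 to 6147 in WT, although an amino acid exchange alone leaves a gene's reads countable. The H4 genes HHF1 and HHF2, which the label does not mention, held 0 to 3 counts, against 528 to 5777 in WT. The labels do not say from where these cells express H3 and H4, the counts cannot show the exchange itself, and its effects and those of the missing histone gene transcripts cannot be told apart. In the rph1Δ libraries the mating-type genes stood apart: 4 alpha-specific genes summed to 1857 to 30149 counts in rph1Δ, against 178 to 643 in the 18 other libraries, 7 a-specific genes to 203 to 647 in rph1Δ against 1226 to 3856, and HMRA1 was at 0 counts in all 6 rph1Δ libraries against 31 to 118. Effects of mating type and of the missing RPH1 cannot be told apart in what follows.

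In WT cells, the move to minimal medium lowered nearly all translation factor mRNAs within 1 h. The 38 genes took 0.713% and 0.709% of the counts of the WT libraries at 1 h and 1.43% and 1.42% at 3 h, against 2.87% and 2.91% at 0 h. At 1 h against 0 h, 36 of the 38 were lower and 2, HEF3 and CAM1, were higher, while 34.8% of all genes tested were lower and 37.3% higher. The median change of the 38 was -1.95 on the log2 scale (3.86-fold lower), against 0.06 for all genes tested. Total RNA per cell was not measured, so a level is a share of the library, and in a bulk culture fewer cells with a transcript and less of it in each cell cannot be told apart. The 132 cytosolic ribosomal protein genes moved the same way and further, with 131 lower, 1 higher and a median of -3.79.

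Between 1 h and 3 h part of the loss was regained. At 3 h against 1 h, 34 of the 38 were higher and 1 lower, against 27.4% and 18.7% of all genes tested, with a median of 0.85 on the log2 scale against 0.03 for all genes. Library totals shifted the median of all genes by -0.27 in that comparison, and 5 members, 2 of them called, turned sign. By limma 29 members were higher and 1 lower, and the matching shares of all genes were not counted. At 3 h against 0 h, 34 remained below their starting level and 3 (HEF3, CAM1 and TEF2) were above it, against 34% lower and 35.6% higher among all genes, with a median of -1.14 against 0.02. SUI1, the gene for eIF1, was the one member not called in that comparison (-0.13 ± 0.09, adjusted p = 0.229).

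**Figure D1:**
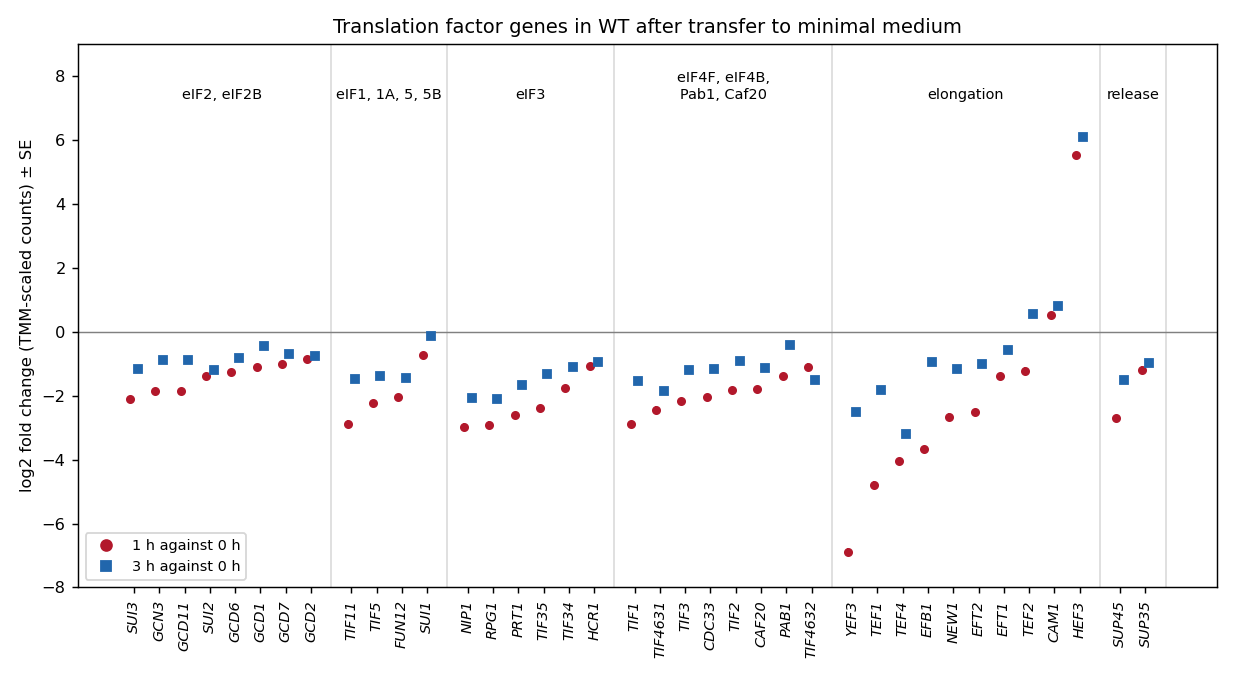
Log2 fold change ± SE in WT cells at 1 h and at 3 h against 0 h for the 38 genes, grouped by role (2 libraries per group, edgeR fit). At 1 h 36 genes lie below 0 and HEF3 stands alone at 5.51, and at 3 h most genes lie nearer to 0 than at 1 h.

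Among the groups of initiation factors, the 8 genes of eIF2 and of its exchange factor eIF2B fell least at 1 h by their median. The single gene SUI1 of another group fell less than any of these 8. All 8 were lower at 1 h, with a median of -1.32, from -2.11 ± 0.08 for SUI3, the beta subunit of eIF2, to -0.84 for GCD2, a regulatory subunit of eIF2B. GCD2 had 37.7 and 38.8 FPKM in WT at 1 h, against 63.8 and 64.0 FPKM at 0 h. By 3 h, 7 of the 8 were higher than at 1 h, the exception being GCD2 itself at 0.09. Of these 7, SUI2 turned sign under library totals (-0.090) and under limma, and GCD7 turned sign under limma (-0.0013). Of the 4 genes for eIF1, eIF1A, eIF5 and eIF5B, all were lower at 1 h. TIF11, the gene for eIF1A, had 129 and 140 FPKM in WT at 1 h against 970 and 880 at 0 h, a fall of 2.89 ± 0.12 on the log2 scale (7.40-fold). SUI1, whose product works beside eIF1A in start codon selection, fell by 0.72 ± 0.09 only, to 583 and 563 FPKM at 1 h, against 892 and 870 at 0 h. The 6 eIF3 genes were all lower at 1 h, with a median of -2.49. NIP1 (-2.99) and RPG1 (-2.91 ± 0.12), which encode the large c and a subunits, fell furthest, and HCR1, the gene for the loosely bound j subunit, fell least (-1.09). By 3 h, 5 of the 6 were higher than at 1 h, and HCR1 was not called at 0.14.

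The 8 genes of eIF4F, eIF4B, PAB1 and CAF20 were all lower at 1 h, with a median of -1.93. CDC33, which encodes eIF4E, fell by 2.03, and CAF20, whose product binds eIF4E and competes with eIF4G, fell by 1.79. PAB1 had 185 and 200 FPKM in WT at 1 h, 341 and 273 FPKM at 3 h and 462 and 464 FPKM at 0 h, which is a fall of 1.37 ± 0.08 at 1 h and of 0.40 ± 0.08 at 3 h on the log2 scale. The 2 genes for eIF4G differed. TIF4631, the major one, had 27.8 and 29.0 FPKM at 1 h and 40.8 and 29.4 at 3 h, against 138 and 150 at 0 h (-2.45 ± 0.13 at 1 h). TIF4632 had 17.6 and 15.9 FPKM at 1 h and 11.5 and 9.27 at 3 h, against 32.3 and 35.0 at 0 h. TIF4632 fell less at 1 h (-1.10 ± 0.13) and was the one member lower at 3 h than at 1 h (-0.40 ± 0.14, adjusted p = 0.0206), so that its share of the pair's FPKM was 37.1% at 1 h and 23% at 3 h, against 18.9% at 0 h. The rise of TIF4631 at 3 h against 1 h (0.60 ± 0.13) was lost when a single library was left out or the scaling was changed.

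Reads of 3 pairs could not all be told apart. TIF2 and TIF1, which encode the same eIF4A protein, differ at 6 of 1188 coding bases, EFT1 and EFT2, which encode the same eEF2, at 4 of 2529, and TEF2 and TEF1, which encode the same eEF1A, at 2 of 1377. Of all 50-base windows of the first named gene, 84.9%, 91.9% and 92.5% also occur unchanged in its partner. No source used here says how reads with several matches were counted, so the split within these pairs is uncertain and the sums are tested as well. Counted together, TIF1 and TIF2 fell by 2.54 ± 0.08, EFT1 and EFT2 by 1.99 ± 0.08 and TEF1 and TEF2 by 2.10 ± 0.10 on the log2 scale in WT at 1 h against 0 h. The summed eEF1A genes at 3 h were not called against 0 h (-0.19 ± 0.10, adjusted p = 0.0835), while the summed eIF4A genes (-1.36 ± 0.08) and eEF2 genes (-0.82 ± 0.08) were still lower. By the deposited split, TIF2 held 40.0% of its pair's FPKM at 1 h and 32.9% at 3 h, against 24.5% at 0 h, and EFT1 held 56.1% at 1 h and 44.6% at 3 h, against 37.4% at 0 h. TIF2 had 86.5 and 95.4 FPKM in WT at 1 h and 134 and 143 FPKM at 3 h, against 300 and 302 FPKM at 0 h. TIF1 had 133 and 140 FPKM in WT at 1 h and 266 and 299 FPKM at 3 h, against 895 and 967 FPKM at 0 h. Both eIF4A genes were far below 0 h at 1 h, with no overlap between the times. Here and below, the share of all genes tested whose libraries did not overlap was not counted. With 2 libraries per group a gene can lack overlap without being called, as TIF35 did between set2Δ and H3K36A at 0 h. EFT1 had 120 and 111 FPKM in WT at 1 h and 175 and 161 FPKM at 3 h, against 283 and 285 FPKM at 0 h. EFT2 had 91.1 and 89.3 FPKM in WT at 1 h and 227 and 191 FPKM at 3 h, against 456 and 496 FPKM at 0 h.

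The elongation factor genes held the members that moved most, and they moved in both directions. At 1 h against 0 h, 8 of the 10 were lower and 2 higher, and at 3 h against 1 h all 10 were higher with TMM scaling, although CAM1 turned sign under library totals and under limma (-0.012). YEF3, the essential gene for eEF3, had 12.6 and 13.3 FPKM in WT at 1 h and 238 and 202 FPKM at 3 h, against 1396 and 1450 FPKM at 0 h. It fell by 6.89 ± 0.12 at 1 h (118-fold, adjusted p = 8.72e-25) and was at rank 38 among the 38 genes by level at 1 h, against rank 4 at 0 h. HEF3, the second gene for eEF3, had 243 and 250 FPKM at 1 h and 286 and 308 FPKM at 3 h, against 4.89 and 5.13 FPKM at 0 h. It rose by 5.51 ± 0.11 at 1 h (45.7-fold, adjusted p = 4.95e-24) and was 6.08 ± 0.11 above 0 h at 3 h. The coding sequences of the pair differ at 798 of 3135 bases and share no 50-base window, so their reads can be told apart. HEF3 made up 0.351% ± 0.003 of the pair's FPKM at 0 h, 95.0% ± 0.1 at 1 h and 57.4% ± 4.1 at 3 h (SD, n = 2 each). The sum of the pair was 259 FPKM at 1 h and 517 FPKM at 3 h, against 1428 FPKM at 0 h. HEF3 lies on chromosome XIV (chrXIV:606319-609453) and overlaps YNL013C on the opposite strand, which held 0 to 9 counts per library. YEF3 lies at chrXII:636780-639914 and overlaps no other gene.

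The eEF1A pair showed the same kind of split. TEF1 (chrXVI:700594-701970) had 110 and 99.6 FPKM in WT at 1 h and 678 and 666 FPKM at 3 h, against 2695 and 2693 FPKM at 0 h, a fall of 4.78 ± 0.11 at 1 h (27.6-fold). TEF2 (chrII:477671-479047) had 1270 and 1225 FPKM at 1 h and 3354 and 3590 FPKM at 3 h, against 2712 and 2709 FPKM at 0 h, a fall of 1.22 ± 0.11 at 1 h and a rise of 0.55 ± 0.11 at 3 h against 0 h. By the deposited split TEF2 held 92.3% of the pair's FPKM at 1 h and 83.8% at 3 h, against 50.2% at 0 h. TEF2 had the highest FPKM of the 38 genes in WT at 1 h and at 3 h, and EFB1 the highest at 0 h.

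The exchange complex eEF1B split in the same way between its 2 gamma subunit genes, whose coding sequences are 69.9% identical and share no 50-base window. TEF4 (chrXI:282891-284455, with an intron that holds the small nucleolar RNA gene snR38) had 61.0 and 54.5 FPKM in WT at 1 h and 87.1 and 80.3 FPKM at 3 h, against 877 and 890 FPKM at 0 h. It fell by 4.04 ± 0.09 at 1 h and, at 3.21 ± 0.09 below 0 h, was the lowest of the 38 changes at 3 h. CAM1 (chrXVI:464401-465648) had 349 and 362 FPKM at 1 h and 357 and 347 FPKM at 3 h, against 234 and 228 FPKM at 0 h, and was called higher at both times (0.52 and 0.80). CAM1 made up 86.0% of the pair at 1 h and 80.8% at 3 h, against 20.7% at 0 h. EFB1, the gene for the catalytic alpha subunit, which holds snR18 in its intron, had 254 and 275 FPKM at 1 h and 1411 and 1389 FPKM at 3 h, against 3119 and 3110 FPKM at 0 h, a fall of 3.66 ± 0.09 and a later rise of 2.70 ± 0.09. Neither small nucleolar RNA gene held more than 6 counts in a library.

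NEW1, which encodes an ATPase related to eEF3, had 14.6 and 13.8 FPKM in WT at 1 h and 35.5 and 29.6 FPKM at 3 h, against 82.7 and 84.7 FPKM at 0 h, a fall of 2.66 ± 0.11 at 1 h. Of the release factors, SUP45 (eRF1) fell by 2.70 and SUP35 (eRF3) by 1.18 at 1 h. SUP45 rose by 1.20 at 3 h against 1 h, and SUP35, with 103 and 76.0 FPKM at 3 h against 94.9 and 94.6 FPKM at 1 h, was not called.

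**Figure D2:**
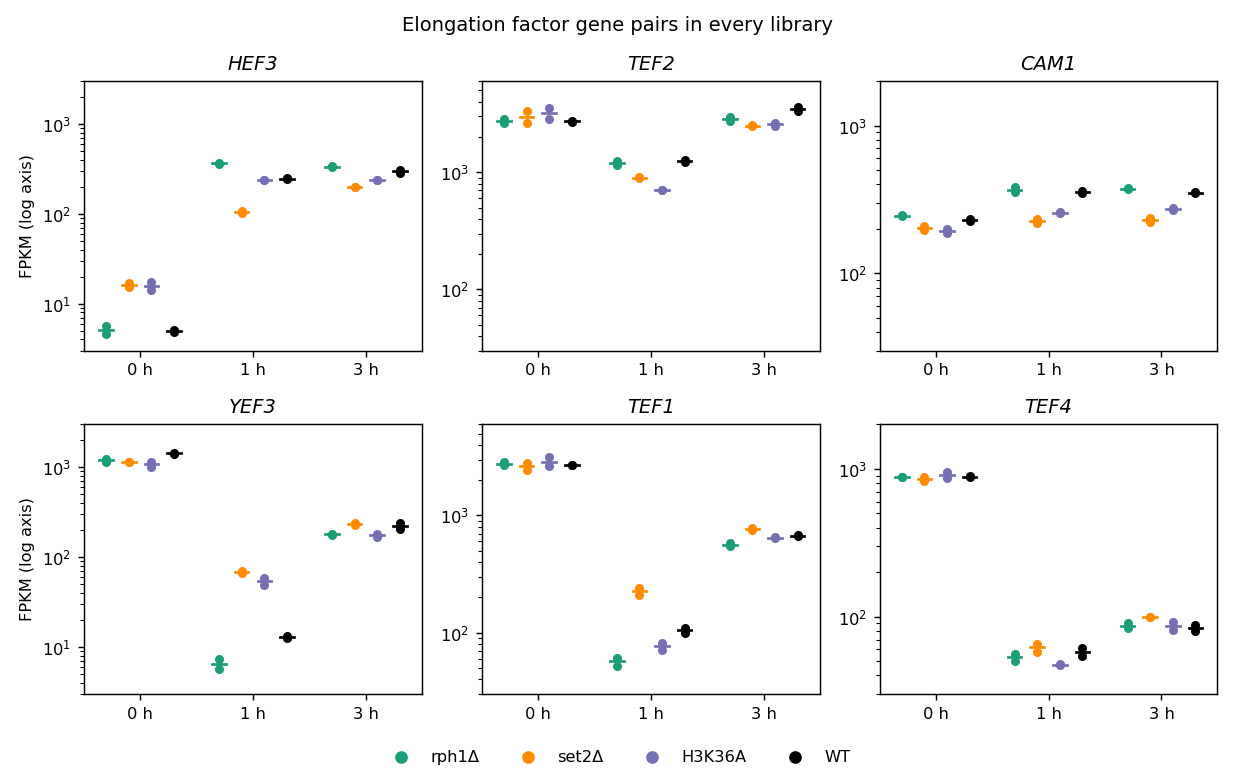
FPKM on a log axis of HEF3 and YEF3, TEF2 and TEF1, and CAM1 and TEF4 in every library, for rph1Δ, set2Δ, H3K36A and WT at 0 h, 1 h and 3 h (points are libraries, 2 per group, and bars are their means). In WT, HEF3 lies near 5 FPKM at 0 h and near 246 at 1 h, while YEF3 lies near 1423 at 0 h and near 12.9 at 1 h, and at 1 h the set2Δ and H3K36A points of YEF3 lie above those of WT.

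Most of the 38 genes also fell and rose in the mutants. At 1 h against 0 h, 36 members were lower and 2 higher in rph1Δ (34.3% and 37.4% of all genes tested), 35 lower and 1 higher in set2Δ (34.9% and 34.1%), and 36 lower and 2 higher in H3K36A (36.3% lower and 36.3% higher). Across the 4 genotypes 35 of the members were called lower in every one, HEF3 was called higher in every one, and CAM1 and TIF4632 were the 2 others. The share of all genes tested that was called alike in all 4 genotypes was not counted. CAM1 was not called in set2Δ (-0.13) and TIF4632 was not called there either (-0.26), while it was lower in the 3 other genotypes. At 3 h against 1 h, 33 members were higher and 0 lower in rph1Δ (25.1% and 16.3% of all genes), 33 and 0 in set2Δ (27% and 19.4%), and 34 higher and 1 lower in H3K36A (27.2% and 21.7%). Of the 38, 29 were called higher at 3 h against 1 h in all 4 genotypes, and 9 were not (FUN12, GCD2, GCD6, GCD7, HCR1, HEF3, SUP35, TIF4631 and TIF4632). Here too the matching share of all genes was not counted. The rises of SUI2 in rph1Δ and of HEF3 in H3K36A turned sign under library totals and under limma. Beside the counts of 0 from edgeR, an unadjusted p under 0.05 gave 0 lower members in rph1Δ and 1 in set2Δ, DESeq2 gave 0 and 1, and limma on log2(FPKM + 1) gave 0 and 1. At 3 h against 0 h, 35 were lower and 2 higher in rph1Δ (33.2% and 35.2%), 36 lower and 1 higher in set2Δ (32.8% and 32.9%), and 36 lower and 2 higher in H3K36A (32.4% and 33.2%).

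In rich medium at 0 h HEF3 was the member that differed most from WT in set2Δ and H3K36A. HEF3 had 17.0 and 15.2 FPKM in set2Δ and 17.2 and 14.1 FPKM in H3K36A, against 4.89 and 5.13 FPKM in WT, and rph1Δ had 5.59 and 4.58 FPKM. The set2Δ and H3K36A libraries did not overlap with WT, and the differences of 1.66 ± 0.12 (3.16-fold, adjusted p = 1.16e-10) and 1.58 ± 0.12 (3.00-fold, adjusted p = 2.52e-10) were called under every setting tried. HEF3 was the lowest of the 38 genes at 0 h in all 4 genotypes, and its share of the eEF3 pair was 1.40% in set2Δ and 1.43% in H3K36A, against 0.351% in WT. In set2Δ, 1 member was higher and 7 were lower, against 13.3% and 8.73% of all genes tested. In H3K36A 2 were higher and 9 lower, against 13.4% and 11.1%, and with library totals as the scaling the split was 2 and 5. Here and below, shares of all genes are those with TMM scaling, and they were not counted with other scalings. The 7 genes called lower in set2Δ were also called lower in H3K36A (NIP1, CDC33, TIF3, PAB1, CAM1, YEF3 and NEW1), but both comparisons use the same WT libraries. How many of all genes tested were lower in both was not counted. Without WT replicate 1 or replicate 2 the set2Δ count was 4 or 3 in place of 8, and the H3K36A count was 6 or 7 in place of 11, and it was also 7 without H3K36A replicate 2.

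NEW1 was the member lowest against WT at 0 h in all 3 mutants. It had 57.9 and 64.8 FPKM in rph1Δ, 54.6 and 69.4 FPKM in set2Δ and 62.6 and 57.9 FPKM in H3K36A, against 82.7 and 84.7 FPKM in WT. All 6 mutant libraries lay below both WT libraries, with changes of -0.50 ± 0.09 in rph1Δ, -0.46 ± 0.09 in set2Δ and -0.53 ± 0.09 in H3K36A, all against the same 2 WT libraries. In rph1Δ it was the only member called at 0 h, with 0 higher and 1 lower against 2.41% of all genes tested in each direction. At an unadjusted p under 0.05 the counts were 0 and 3, by DESeq2 0 and 2, by limma 0 and 1, and without rph1Δ replicate 1 the count was 0.

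At 1 h in minimal medium the eEF3 switch of WT cells was less complete in set2Δ and H3K36A and somewhat more complete in rph1Δ. YEF3 had 7.36 and 5.64 FPKM in rph1Δ, 70.4 and 67.1 FPKM in set2Δ and 49.1 and 58.8 FPKM in H3K36A, against 12.6 and 13.3 FPKM in WT. No mutant library overlapped with WT, and YEF3 differed by 2.19 ± 0.11 in set2Δ (4.57-fold, adjusted p = 3.25e-14), by 1.89 ± 0.11 in H3K36A (3.71-fold, adjusted p = 4.36e-13) and by -1.09 ± 0.13 in rph1Δ (2.13-fold lower, adjusted p = 1.23e-06). HEF3 had 368 and 358 FPKM in rph1Δ, 106 and 101 FPKM in set2Δ and 239 and 239 FPKM in H3K36A, against 243 and 250 FPKM in WT. It was lower in set2Δ (-1.47 ± 0.08, 2.76-fold, adjusted p = 1.99e-13) and higher in rph1Δ (0.45 ± 0.08, 1.37-fold, adjusted p = 0.000185), while its small difference in H3K36A (-0.22 ± 0.08, adjusted p = 0.0261) was lost under 9 of the 14 other settings, including without any one of the 4 libraries. HEF3 made up 98.2% of the pair's FPKM in rph1Δ, 60.1% in set2Δ and 81.6% in H3K36A, against 95.0% in WT. In the rph1Δ comparisons mating type differed as well, as given above.

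In set2Δ at 1 h, 10 members were higher and 11 lower than in WT, against 20.4% and 27.3% of all genes tested. With median-of-ratios scaling the split was 10 and 6, and with library totals, which shift the median of all genes by 0.21 on the log2 scale, it was 17 and 4. The shares of all genes with these scalings, for this mutant and those that follow, were not counted. In H3K36A 9 were higher and 15 lower, against 20% and 26.7% of all genes, and 13 and 9 with library totals, which shift the median by 0.16. In rph1Δ 1 was higher and 4 lower, against 5.9% and 9.27%, and 4 and 3 with library totals. The rph1Δ count was 3 without WT replicate 1 and 3 without rph1Δ replicate 1. The median change of the 38 was -0.04 in rph1Δ, -0.07 in set2Δ and -0.10 in H3K36A, against 0.00, -0.05 and -0.05 for all genes. The 132 ribosomal protein genes had medians of -0.24 in rph1Δ, -0.61 in set2Δ and -0.80 in H3K36A.

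The members higher in both set2Δ and H3K36A at 1 h included both genes for the scaffold eIF4G, the eEF3 relative NEW1, the eIF3 genes RPG1 and PRT1, FUN12 and GCD6. TIF4631 had 77.5 and 76.5 FPKM in set2Δ and 84.4 and 94.8 FPKM in H3K36A, against 27.8 and 29.0 FPKM in WT, which is 1.22 ± 0.13 (2.33-fold) and 1.48 ± 0.13 (2.79-fold) on the log2 scale. TIF4632 had 36.5 and 40.6 FPKM in set2Δ and 41.1 and 40.7 FPKM in H3K36A, against 17.6 and 15.9 FPKM in WT, or 0.98 ± 0.12 and 1.11 ± 0.12. In rph1Δ neither was called (34.7 and 31.7 FPKM for TIF4631, 19.0 and 15.6 FPKM for TIF4632). NEW1 had 40.0 and 40.5 FPKM in set2Δ and 30.2 and 29.9 FPKM in H3K36A, against 14.6 and 13.8 FPKM in WT (1.28 ± 0.11 and 0.90 ± 0.11), and rph1Δ had 18.8 and 15.4 FPKM (0.16, not called). None of these set2Δ or H3K36A libraries overlapped with WT, and the share of all genes without overlap was not counted. The largest eIF3 subunit gene RPG1 was 0.63 ± 0.12 higher in set2Δ and 0.53 ± 0.13 in H3K36A, FUN12, the gene for eIF5B, was 0.29 ± 0.08 and 0.64 ± 0.08 higher, and GCD6, the catalytic subunit of eIF2B, was 0.56 ± 0.09 and 0.32 ± 0.09 higher. PRT1, the eIF3 b subunit, was 0.27 ± 0.08 and 0.31 ± 0.08 higher. Leaving out 1 library ended the calls of FUN12 in set2Δ (WT or set2Δ replicate 2), of PRT1 in set2Δ (WT or set2Δ replicate 1) and of GCD6 in H3K36A (WT replicate 2 or H3K36A replicate 1).

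Other members were lower in both mutants at 1 h. TEF2 had 907 and 897 FPKM in set2Δ and 704 and 699 FPKM in H3K36A, against 1270 and 1225 FPKM in WT (-0.69 ± 0.11 and -1.01 ± 0.11). CAM1 had 233 and 219 FPKM in set2Δ and 256 and 259 FPKM in H3K36A, against 349 and 362 FPKM in WT (-0.87 and -0.64). PAB1 had 146 and 151 FPKM in set2Δ and 159 and 150 FPKM in H3K36A, against 185 and 200 FPKM in WT (-0.59 ± 0.08 and -0.49 ± 0.08). In none of these 3 genes did the libraries of either mutant overlap with WT. The 2 mutants went opposite ways at TEF1, with 239 and 211 FPKM in set2Δ and 81.9 and 71.4 FPKM in H3K36A, against 110 and 99.6 FPKM in WT (0.88 ± 0.10 and -0.63 ± 0.11), and rph1Δ had 61.3 and 52.3 FPKM (-0.99 ± 0.11). Counted together, TEF1 and TEF2 were lower in set2Δ (-0.49 ± 0.10, adjusted p = 0.000218) and in H3K36A (-0.98 ± 0.10, adjusted p = 1.11e-08) and were not called in rph1Δ (-0.21 ± 0.10, adjusted p = 0.169). EFB1 was lower in H3K36A, at 168 and 169 FPKM against 254 and 275 FPKM in WT (-0.82 ± 0.09), and was not called in set2Δ, at 328 and 293 FPKM (0.01). Of the members called at 1 h, 8 were higher in both set2Δ and H3K36A and 10 were lower in both. How many of all genes tested were called alike in both mutants was not counted. These 2 comparisons share the WT libraries, so the overlap is no independent support for either.

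**Figure D3:**
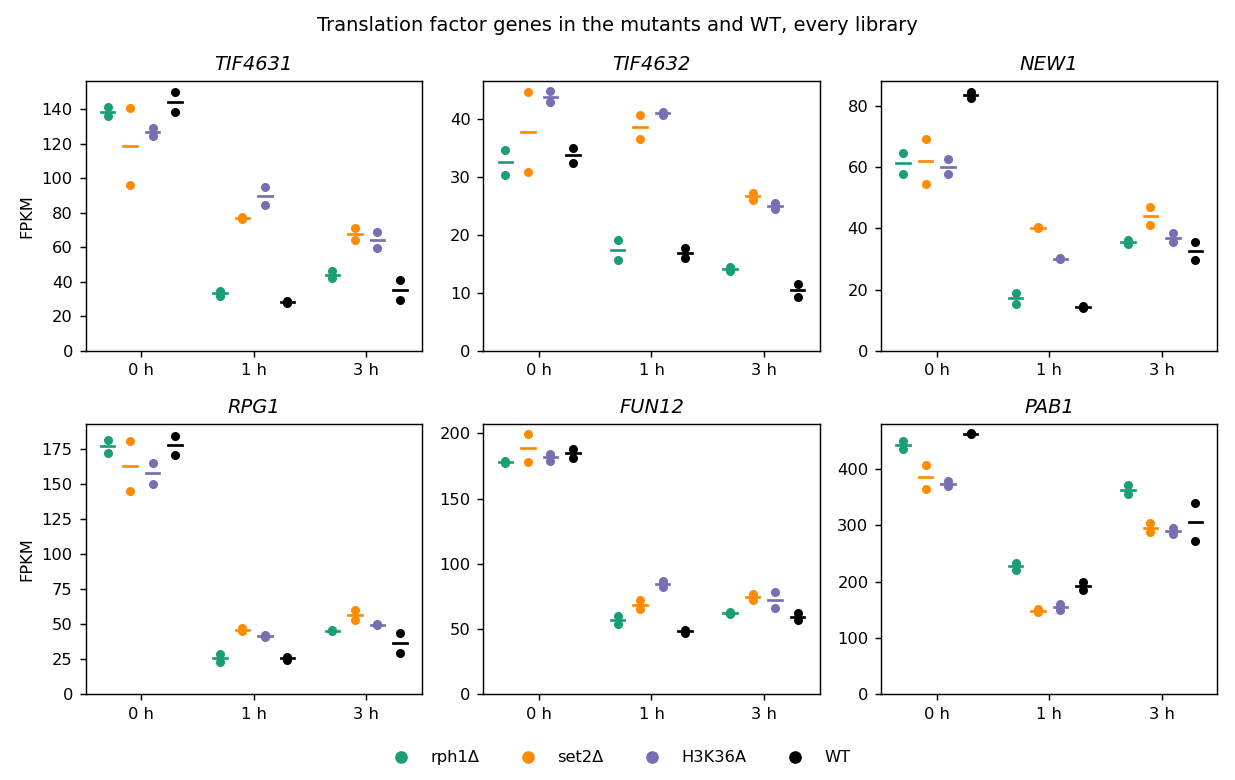
FPKM of TIF4631, TIF4632, NEW1, RPG1, FUN12 and PAB1 in every library of rph1Δ, set2Δ, H3K36A and WT at 0 h, 1 h and 3 h (points are libraries, 2 per group, and bars are their means). At 1 h the set2Δ and H3K36A points of TIF4631 lie between 76.5 and 94.8 FPKM, against 27.8 and 29.0 in WT, while those of PAB1 lie below WT.

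At 3 h the eIF4G genes still stood above WT in set2Δ and H3K36A. With TMM scaling most other calls were downward, a direction that did not hold with library totals, as the counts given after the single genes show. TIF4632 had 26.1 and 27.1 FPKM in set2Δ and 25.5 and 24.4 FPKM in H3K36A, against 11.5 and 9.27 FPKM in WT, a difference of 1.11 ± 0.14 (2.16-fold) and 1.03 ± 0.14 (2.05-fold), the highest of the members in both mutants. TIF4631 had 64.0 and 71.4 FPKM in set2Δ and 68.6 and 59.6 FPKM in H3K36A, against 40.8 and 29.4 FPKM in WT (0.70 ± 0.13 and 0.64 ± 0.13). The lowest called member in set2Δ was CAM1, with 236 and 222 FPKM against 357 and 347 FPKM in WT (-0.87), and in H3K36A it was EFB1, with 931 and 1005 FPKM against 1411 and 1389 FPKM in WT (-0.77 ± 0.08). HEF3 was lower in both, at 196 and 198 FPKM in set2Δ and 236 and 237 FPKM in H3K36A against 286 and 308 FPKM in WT (-0.84 ± 0.08 and -0.56 ± 0.08). YEF3 was lower in H3K36A (181 and 167 FPKM against 238 and 202 FPKM in WT, -0.58 ± 0.09) and not called in set2Δ (224 and 240 FPKM, -0.17).

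In set2Δ at 3 h, 3 members were higher and 16 lower than in WT, against 20.6% and 27.8% of all genes tested, and 13 were higher and 6 lower with library totals, which shift the median of all genes by 0.23. In H3K36A 2 were higher and 20 lower, against 18.7% and 27.6%, and 7 and 8 with library totals, which shift the median by 0.22. In rph1Δ 0 were higher and 11 lower, against 11.6% and 16.4%, and 4 and 6 with library totals, which shift the median by 0.11. Beside that count of 0 from edgeR, 1 member was higher at an unadjusted p under 0.05, DESeq2 gave 0 and limma gave 4. The shares of all genes with library totals or by limma were not counted. The rph1Δ count of 11 was 18 without WT replicate 1, 6 without WT replicate 2 and 5 without rph1Δ replicate 1. The median change of the 38 at 3 h was -0.09 in rph1Δ, -0.17 in set2Δ and -0.25 in H3K36A, against -0.03, -0.06 and -0.06 for all genes. TIF11, the gene for eIF1A, was lower in all 3, with 236 and 226 FPKM in rph1Δ, 224 and 238 FPKM in set2Δ and 229 and 198 FPKM in H3K36A, against 278 and 305 FPKM in WT. These changes were -0.47 ± 0.12, -0.58 ± 0.12 and -0.68 ± 0.12, and the call in rph1Δ was lost without WT replicate 2 and by limma with either pseudocount. The lowest in rph1Δ was SUI3, the eIF2 beta subunit gene, with 192 and 166 FPKM against 227 and 239 FPKM in WT (-0.51). SUI3 overlaps YPL238C on the opposite strand, which held 3 to 12 counts in the libraries of 3 h. The eEF3 pair had 177 and 182 FPKM of YEF3 and 337 and 335 FPKM of HEF3 in rph1Δ at 3 h, against 238 and 202 FPKM and 286 and 308 FPKM in WT, where YEF3 was called lower (-0.43 ± 0.09, not called by limma) and HEF3 was not called (0.05).

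The difference between a mutant's change and that of WT was tested directly. From 0 h to 1 h the change differed from WT for 1 member upward and 2 downward in rph1Δ (3.29% and 5.23% of all genes tested), for 10 and 4 in set2Δ (10.9% and 17.2%) and for 9 and 6 in H3K36A (9.9% and 18%). With library totals these splits were 3 and 2 in rph1Δ and 19 and 3 in set2Δ, where this scaling shifts the median of all genes by 0.19. The shares of all genes with this scaling were not counted. YEF3 fell less than in WT by 2.55 ± 0.14 in set2Δ (adjusted p = 1.08e-12) and by 2.36 ± 0.14 in H3K36A (adjusted p = 3.02e-12), and fell further in rph1Δ (-0.79 ± 0.16, adjusted p = 0.00188). HEF3 rose less than in WT, with a difference of -3.13 ± 0.14 in set2Δ (adjusted p = 2.74e-14) and -1.80 ± 0.14 in H3K36A (adjusted p = 3.11e-10), from a level at 0 h that was already higher. In set2Δ the rise of HEF3 at 1 h against 0 h was 2.39 and in H3K36A 3.71, against 5.51 in WT. TIF4631 fell less by 1.54 ± 0.17 in set2Δ and 1.73 ± 0.17 in H3K36A, and NEW1 by 1.74 ± 0.14 and 1.43 ± 0.14. TEF2 fell further than in WT (-0.81 ± 0.15 in set2Δ and -1.20 ± 0.15 in H3K36A).

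The differences from 1 h to 3 h use the same libraries of 1 h as those from 0 h to 1 h, with opposite sign, so the directions of the 2 are not independent. The change differed from WT for 2 members upward and 1 downward in rph1Δ (3.51% and 2.49% of all genes), for 1 and 9 in set2Δ (10.7% and 10.5%) and for 0 and 8 in H3K36A (9.72% and 10.2%). With library totals the H3K36A split was 2 and 6, and the matching shares of all genes were not counted. For the count of 0 in H3K36A from edgeR, an unadjusted p under 0.05 gave 3 members, and DESeq2 and limma gave 0. YEF3 rose less than in WT (-2.36 ± 0.14 in set2Δ and -2.47 ± 0.15 in H3K36A), and so did NEW1 (-1.09 ± 0.15 and -0.95 ± 0.15). Both started from levels at 1 h that were higher than in WT. At 3 h NEW1 had 41.0 and 47.0 FPKM in set2Δ and 38.4 and 35.5 FPKM in H3K36A. WT had 35.5 and 29.6 FPKM, and neither mutant was called against it. The rph1Δ count of 3 was 0 to 6 without 1 library: 1 without WT replicate 1 or 2 of 1 h, 0 without rph1Δ replicate 2 of 1 h, 6 and 1 without WT replicate 1 and 2 of 3 h, and 1 without rph1Δ replicate 2 of 3 h. The set2Δ count of 10 was 6 without set2Δ replicate 1 of 1 h, and the H3K36A count of 8 was 5 without H3K36A replicate 1 of 3 h.

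By their labels neither set2Δ nor H3K36A cells can carry methylation by Set2 at H3K36. The members differed little between them at 0 h and 3 h. At 0 h, 0 members were higher and 0 lower in set2Δ than in H3K36A by edgeR, against 1.54% and 1.18% of all genes. No member passed an unadjusted p of 0.05, and DESeq2 and limma gave 0 as well, but 1 was called without set2Δ replicate 2. HEF3 had 17.0 and 15.2 FPKM in set2Δ at 0 h, against 17.2 and 14.1 FPKM in H3K36A, and these libraries overlapped (0.08 ± 0.10). At 3 h, 1 member was higher and 2 lower, against 2.23% and 2.46%, and the count of 3 was 1 or 0 without any one of the 4 libraries (1 without set2Δ or H3K36A replicate 1 and 0 without replicate 2 of either). At 1 h 7 were higher and 5 lower in set2Δ than in H3K36A, against 14.8% and 14.6%, with 9 and 3 under library totals, and 5 in all without set2Δ replicate 1. The shares of all genes under library totals were not counted. The 3 largest differences at 1 h held under every setting tried for the single genes. TEF1 was 1.51 ± 0.10 higher in set2Δ (2.84-fold, adjusted p = 2.27e-11), HEF3 was lower (-1.25 ± 0.08, 2.37-fold, adjusted p = 6.61e-12) and EFB1 was 0.83 ± 0.09 higher (1.78-fold, adjusted p = 6.29e-08), each with no overlap between the libraries. The size at TEF1 rests on the uncertain split with TEF2. Counted together, TEF1 and TEF2 were 0.49 ± 0.10 higher in set2Δ than in H3K36A at 1 h (adjusted p = 0.000437). The 2 eIF4G genes and RPG1 were not called there. SET2 mRNA was at 0 counts in the set2Δ libraries, against 250 to 407 counts in the H3K36A libraries.

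Longer members tended to be the ones called higher in set2Δ and H3K36A at 1 h. Of the 13 members with an exonic length of at least 2000 bases, 8 were higher and 1 lower in set2Δ. In H3K36A 8 of the 13 were higher and 2 lower, and in rph1Δ 1 was higher and 1 lower. Of the 25 shorter ones 2 were higher and 10 lower in set2Δ and 1 was higher and 13 lower in H3K36A. In rph1Δ 0 of the 25 were higher and 3 lower. The calls among all genes of each length class were not counted. The Spearman correlation of length with the log2 change at 1 h over the 38 genes was 0.393 in rph1Δ, 0.415 in set2Δ and 0.524 in H3K36A, against 0.276, 0.203 and 0.227 over the 6503 genes tested. At 0 h it was -0.142, 0.017 and 0.005 for the 38 genes, against 0.106, 0.039 and 0.13 over all genes. At 3 h it was 0.554, 0.486 and 0.329, against 0.4, 0.368 and 0.354 over all genes. These correlations describe genes of the same libraries, which are not independent replicates, and the 3 mutants share the WT libraries. The sign over all genes was positive in each mutant at 0 h, 1 h and 3 h. HEF3 and YEF3 have the same length, 3135 bases, and moved in opposite directions in set2Δ. Whether RNA quality or library preparation had a part in the relation with length was not tested.

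**Figure D4:**
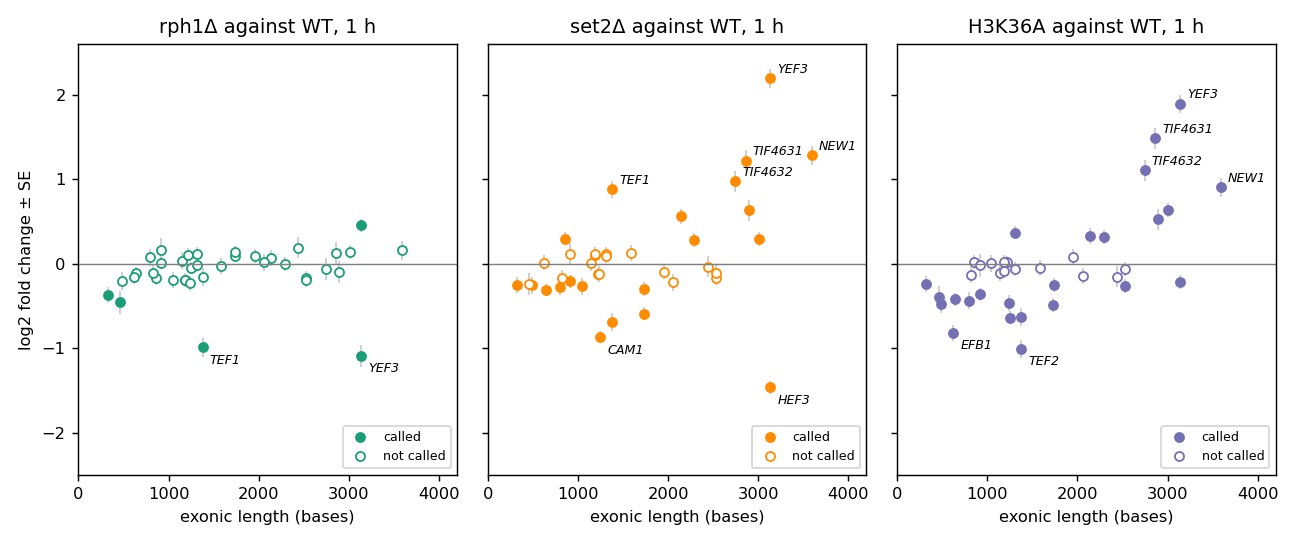
Log2 fold change against WT at 1 h plotted against exonic length in bases for the 38 genes, in rph1Δ, set2Δ and H3K36A (1 point per gene, bars are SE, filled where called at an adjusted p under 0.05). In set2Δ and H3K36A most genes of at least 2000 bases lie above 0 and most shorter genes below, with HEF3 below 0 and YEF3 above it at the same length.

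Further lists of translation genes were counted in WT at 1 h against 0 h, where 37.3% of all genes tested were higher and 34.8% lower. Of 12 further initiation factors and helicases, 2 were higher and 9 lower at 1 h against 0 h. Those higher were DBP1 (2.73 ± 0.16) and TMA64 (0.22 ± 0.09), while DED1, the essential helicase related to DBP1, fell by 1.32 ± 0.15. The lowest were RLI1 (-2.66 ± 0.09), whose product recycles ribosomes, and YGR054W (-2.25 ± 0.11), the gene for eIF2A. Of 5 regulators of the eIF2 kinase pathway, GCN2, the kinase itself, was higher (0.43 ± 0.10) and 3 were lower, the lowest being GIR2 (-1.61 ± 0.12) and GCN20 (-0.76 ± 0.09). Of 15 genes whose products modify elongation factors, 14 were lower and 1 was not called, the lowest being LIA1 (-5.02 ± 0.13), which completes hypusine on eIF5A, and EFM6 (-2.57 ± 0.56), an eEF1A methyltransferase. Of 7 release, rescue and recycling genes, 3 were higher, with ITT1 (0.89 ± 0.14) and SKI7 (0.79 ± 0.15) highest, and 3 lower, with TPA1 (-2.19 ± 0.10) and DOM34 (-0.88 ± 0.12) lowest. All 7 mitochondrial translation factors were lower at 1 h, with a median of -3.02 and with MEF1 (-4.37 ± 0.10), a mitochondrial elongation factor, and TUF1 (-3.38 ± 0.08), the mitochondrial EF-Tu, lowest, and all 7 were still lower at 3 h than at 0 h, with a median of -2.82, against 34% of all genes tested.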

How the data were processed

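RNA of 24 libraries was sequenced from 12 groups with 2 libraries each, and per the labels' protocols total RNA was isolated with the MasterPure yeast kit. Per the submitters' processing notes the tools were cutadapt 1.9.1, HISAT2 2.0.1 and HTSeq 0.6.1 with the build sacCer3. No source used here gives their settings, strand use or treatment of reads with several matches. The authors deposited 1 table with raw read counts and FPKM values per gene and library. The deposited FPKM equals count per exonic length and library total for 100% of values within 0.0051.

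The counts were tested with edgeR 4.0.16 (R 4.3.3, quasi-likelihood test, TMM factors 0.823 to 1.19) in 1 fit of all 12 groups with 12 residual degrees of freedom. Of 7126 genes, 6503 reached 1 FPKM in 2 or more libraries and were tested, and 623 were left out. P-values were adjusted by Benjamini-Hochberg within each of 30 comparisons: 12 between times, 9 of a mutant with WT, 6 of changes and 3 of set2Δ with H3K36A. Tests were tried on simulated data. Alternatives were other scalings, filters, DESeq2 1.42.0, limma 3.58.1 on log2 FPKM, a replicate block, the compared groups alone, summed pairs and leaving out each library. Intervals and tests cover these libraries only.

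The members and lists were chosen with earlier results of these data known. All 38 members may be named. Library values are given for the gene pairs and for the called members with the highest and lowest change in each comparison, and from each other list the 2 highest and 2 lowest called genes are named. Some members, such as NEW1 and PAB1, were given library values after their levels had been seen. No 2 libraries of a group agreed within sampling noise (chi-square per degree of freedom 2.72 to 14.9 over all genes). For the 38 members alone it was 2.87 to 48.0, with the highest values in set2Δ (48.0) and H3K36A (43.1) at 0 h.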

Additional observations from a re-analysis of the deposited data

Results flagged for a closer look

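Changes that differed between a mutant and WT, tested as the difference of the 2 log2 changes (edgeR, adjusted p at most 0.0119), numbered 32 among the members at a size of at least 1.5-fold, of 53 called. How many of all genes tested were called at that size was not counted, so the number alone does not set the members apart. The 3 mutants share the WT libraries, so these are not independent of each other. Every value is the mutant's change less the WT change.

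In set2Δ, at 1 h less 0 h, the difference was 2.55 for YEF3, -3.13 for HEF3 and 1.74 for NEW1, the eEF3 family. It was 1.54 for TIF4631 and 0.85 for TIF4632, the eIF4G genes, and 0.79 for RPG1 of eIF3. For eEF1A it was 0.94 at TEF1 and -0.81 at TEF2 by the deposited split, and -0.52 ± 0.14 for the 2 counted together. For CAM1 it was -0.65. At 3 h less 1 h, YEF3 had -2.36, NEW1 -1.09, TEF1 -0.94 and HEF3 0.63. TEF1 and TEF2 counted together were not called there (-0.10 ± 0.14, adjusted p = 0.652).

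In H3K36A, at 1 h less 0 h, the difference was 2.36 for YEF3, -1.80 for HEF3 and 1.43 for NEW1. It was 1.73 for TIF4631 and 0.79 for TIF4632, 0.76 for RPG1, 0.72 for FUN12 and 0.69 for TIF3, the gene for eIF4B. It was -1.20 for TEF2, -0.67 for TEF1, -1.09 ± 0.14 for these 2 counted together, and -0.75 for EFB1. At 3 h less 1 h, YEF3 had -2.47, NEW1 -0.95 and TIF4631 -0.84.

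In rph1Δ, at 1 h less 0 h, the difference was -0.98 for TEF1, -0.79 for YEF3 and 0.66 for NEW1. At 3 h less 1 h it was 0.60 for TEF1 and 0.67 for YEF3. Of these 5 calls, 3 ended when 1 library was left out. NEW1 was lost without rph1Δ replicate 1 of 1 h. TEF1 at 3 h less 1 h was lost without WT replicate 1 of 1 h, rph1Δ replicate 2 of 1 h or rph1Δ replicate 2 of 3 h. YEF3 at 3 h less 1 h was lost without WT replicate 2 of 1 h, rph1Δ replicate 2 of 1 h or WT replicate 2 of 3 h. The split of reads between TEF1 and TEF2 is uncertain. Counted together, they were not called in rph1Δ at 1 h less 0 h (-0.18 ± 0.14, adjusted p = 0.512). Their sum was not called at 3 h less 1 h either (-0.21 ± 0.14, adjusted p = 0.463), where its sign was opposite to that of TEF1. The mating-type transcripts differ between rph1Δ and the other genotypes as well, and their part was not tested.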

How the results depend on the processing

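Of 625 calls of a member in a comparison, 498 held under every setting tried, 119 lost significance under at least 1 and 8 changed sign under at least 1. Summing a near-identical pair was not among the settings for calls of the genes of that pair. Among calls of a mutant against WT, 43 of 44 with a log2 change of at least 0.5 held throughout, the exception being NEW1 in rph1Δ at 0 h, and 16 of 78 smaller ones did. No strong effect shared by libraries of the same replicate number was seen: of 66 pairs of groups 0 had a correlation of deviations above 0.1 and 2 below -0.1 (median 0.004). This cannot show whether libraries of the same number were handled together, which the labels do not say. With a replicate block there were 623 calls against 625, and no comparison's count moved by over 1.5 times.

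The count for rph1Δ against WT at 0 h was 1, and 2 with no filter, 2 by DESeq2 and 3 with only the compared groups. At 3 h it was 11, and 7 by limma with either pseudocount or with only the compared groups. For set2Δ at 0 h it was 8, and 5 by limma and 2 with only the compared groups, which gave 10 in place of 19 at 3 h. For H3K36A at 0 h it was 11, and 7 with library totals or by limma, and at 3 h 22, and 11 with only the compared groups. For the change at 1 h less 0 h, the rph1Δ count was 3, and 5 with library totals or by limma and 8 with only the compared groups, and the set2Δ count was 14, and 22 with library totals. For set2Δ against H3K36A at 3 h it was 3, and 7 with only the compared groups.

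Leaving out 1 library gave 0 to 1, 3 to 4 and 5 to 18 calls for rph1Δ against WT at 0, 1 and 3 h, 3 to 7, 14 to 18 and 13 to 22 for set2Δ, and 6 to 10, 19 to 21 and 16 to 22 for H3K36A. It gave 2 to 4 and 0 to 6 for the rph1Δ changes less the WT changes (1 h less 0 h, 3 h less 1 h), 12 to 15 and 6 to 10 for set2Δ, 13 to 15 and 5 to 10 for H3K36A, and 0 to 1, 5 to 9 and 0 to 1 for set2Δ against H3K36A at 0, 1 and 3 h.

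Sign changes came with library totals and with limma, which was run on log2 FPKM and so is also scaled by library totals without TMM factors. These settings share that scaling and are not independent of each other. The cause of each sign change was not tested. At 3 h against 1 h in WT, SUI2 had -0.090 under library totals and -0.0897 and -0.0904 under the 2 limma settings, CAM1 -0.012 under the same 3 and GCD7 -0.0013 under limma. At 3 h against 1 h SUI2 in rph1Δ had -0.019 under library totals and -0.017 under limma, and HEF3 in H3K36A -0.013 under the same 3. Against WT, SUI2 in set2Δ at 1 h had 0.012 under the 3 settings, SUI1 in H3K36A at 3 h 0.0012 under limma, and TIF1 in H3K36A at 3 h 0.032 under library totals and 0.035 under limma.

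Calls under 0.5 on the log2 scale often depended on the setting, and some larger ones did too: among differences of changes, 33 of 37 of at least 0.5 held throughout and 3 of 16 smaller ones did. The FPKM share of near-identical genes rests on an unknown treatment of shared reads.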
